A study of Mus musculus with 3 samples.

Results

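Cone photoreceptors of the mouse retina were described from 259 of 5400 cell barcodes in 3 single-cell RNA libraries. The libraries came from retinas of C57BL/6JRj mice killed at 3 months (called Young), at 12 months (Adult) or at 23 months (Old), 1 library per age, each pooled from the retinas of 2 mice. The dissociated tissue had been enriched for CD31, a surface protein of endothelial cells, with magnetic beads, so the cones are cells that were carried along in a vascular preparation and their number does not give their share in the retina. Each captured transcript was tagged with a unique molecular identifier (UMI) near its 3′ end, and levels are given as CPM, the UMIs of a gene scaled to a total of 1000000 UMIs over the cells summed. With 1 library per age, no difference between ages has a replicate check, and age cannot be told apart from the preparation.

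A barcode was counted as a cone when it had 500 to 6000 genes, 1 to 20% of its UMIs from mitochondrial genes, and a UMI of at least 5 of 9 cone genes: Arr3, Opn1sw, Opn1mw, Gnat2, Pde6h, Pde6c, Gngt2, Cnga3 and Cngb3. The members were thus chosen by their measured UMIs of these genes. This gave 77 of 1713 Young barcodes (4.50%, 95% Clopper-Pearson interval 3.56 to 5.59), 107 of 1974 Adult barcodes (5.42%, 4.46 to 6.51) and 75 of 1713 Old barcodes (4.38%, 3.46 to 5.46). The 3 intervals overlap. All intervals in this text cover counting error only. The cones were read deeply, with totals of 584670 UMIs for Young, 720753 for Adult and 539478 for Old cones and medians of 7341, 6650 and 7462 UMIs per cone. Only 1 cone was marked as a doublet by Scrublet. Libraries shared few barcode sequences over all their cells, 1 between Young and Adult, 0 between Young and Old and 3 between Adult and Old.

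Cones are the photoreceptors of daylight and colour vision. Light absorbed by an opsin activates the G protein transducin, whose alpha subunit in cones is Gnat2, and this switches on the phosphodiesterase Pde6c with its inhibitory subunit Pde6h. The fall of cyclic GMP closes the channel formed by Cnga3 and Cngb3, and the arrestin Arr3 ends the signal. Mouse cones carry the short-wavelength opsin (S-opsin, Opn1sw), the middle-wavelength opsin (M-opsin, Opn1mw) or both, in proportions that change from the dorsal to the ventral retina. Rods, by far the more frequent photoreceptor, run a parallel cascade with mostly separate subunits.

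The barcodes near the limit are described here by the same 9 genes that set it. In the Young library 4 barcodes had 4 of the 9 genes and 0 had 5, in the Adult library 7 had 4 and 5 had 5, and in the Old library 4 had 4 and 2 had 5. Just outside the limit, barcodes with 4 genes had a median of 7, 8 and 5 UMIs of the 9 genes in the Young, Adult and Old library. Just inside it, those with 5 genes had 24 (Adult) and 15 (Old), and the Young barcodes with 6 genes had 23.5. Per depth, the 2 Old barcodes with 5 genes had a median of 1170.5 CPM of the 9 genes at 12457.5 UMIs, beside 1158.7 CPM at 6450.5 UMIs in the 4 Old barcodes with 4 genes. Most cones had 7 to 9 of the genes.

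**Figure D1:**
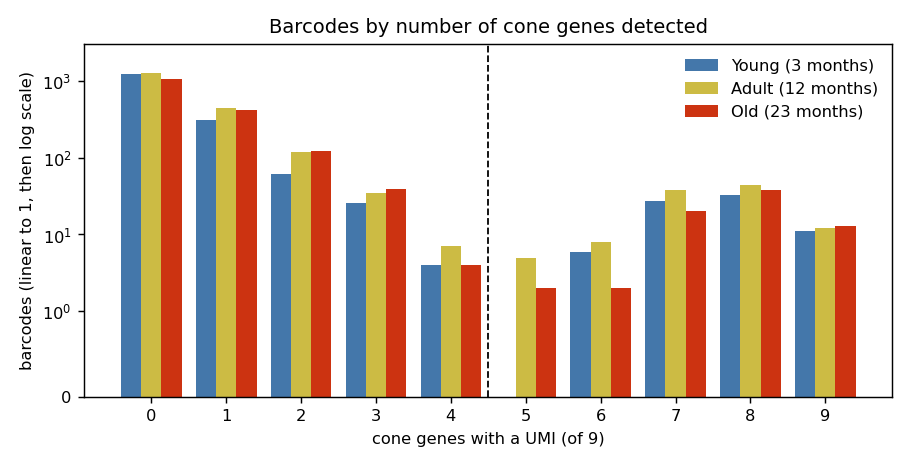
Number of barcodes (linear to 1, then log scale) by how many of the 9 cone genes had a UMI, for each library; the dashed line is the limit for cones. Few barcodes had 4 or 5 genes, and the counts rise again to between 20 and 38 at 7 genes.

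The genes of the rule were high in cones by choice, so their levels are a description. S-opsin stood at 5981 CPM in Young, 6200 in Adult and 7641 in Old cones, and at 15.1 CPM or less in rods, bipolar cells and endothelial cells of the same libraries. M-opsin stood at 3487, 4019 and 4623 CPM in cones and at 10.5 or less in those classes. Pde6h stood at 10481, 11499 and 13819 CPM, Arr3 at 2882, 3100 and 3424, and Gnat2 at 2555, 2532 and 3064. Pde6c, the catalytic subunit, stood at 1079, 1053 and 1046 CPM. The channel subunits were lower, with Cngb3 at 477, 483 and 538 CPM and Cnga3 at 51.3, 61.0 and 72.3. Gngt2, a transducin gamma subunit, stood at 6770, 7473 and 8147 CPM in cones and also at 364, 405 and 397 CPM in bipolar cells. Bipolar cells also held Gnat2 at 53.5, 53.8 and 67.3 CPM, and endothelial cells Gngt2 at 33.3, 42.3 and 51.7.

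Some RNA of other cells was present. The 6 rod marker genes, all of them detected, summed to 1869 CPM in Young, 5494 in Adult and 2297 in Old cones. The sum was highest in the Adult cones. The part of RNA carried over from rods in it was not tested, and the comparison with rods was repeated without that library, which left 960 genes higher and 901 lower. In 14 cones at least 4 of 6 markers of another class were found, 7 Young, 4 Adult and 3 Old. Of these, 6 carried markers of Müller glia, 4 of bipolar cells, 3 of endothelial cells, 2 of pericytes and 1 of erythroid cells, and a barcode can carry more than 1 kind. Rod markers were not used to find these 14. The comparisons were repeated without them.

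The opsin genes and Gnat2 are shown by their promoters, 250 bases before to 50 bases after the start of transcription in RefSeq on GRCm38.p6, because cones divide by the opsins and share Gnat2. Capitals mark TAATCC, the core that the photoreceptor factor CRX recognises, searched on both strands, so that GGATTA also counts. The sequences read 5′ to 3′ on the strand of the gene. Opn1sw lies on chromosome 6 (minus strand), Opn1mw on chromosome X (plus strand) and Gnat2 on chromosome 3 (plus strand).
Opn1sw, chr6:29380464-29380763: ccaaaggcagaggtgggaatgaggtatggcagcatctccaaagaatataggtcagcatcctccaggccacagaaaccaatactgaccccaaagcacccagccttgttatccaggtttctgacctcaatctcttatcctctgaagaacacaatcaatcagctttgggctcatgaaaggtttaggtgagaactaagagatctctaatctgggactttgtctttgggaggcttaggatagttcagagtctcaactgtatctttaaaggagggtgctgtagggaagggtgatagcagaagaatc
Opn1mw, chrX:74127216-74127515: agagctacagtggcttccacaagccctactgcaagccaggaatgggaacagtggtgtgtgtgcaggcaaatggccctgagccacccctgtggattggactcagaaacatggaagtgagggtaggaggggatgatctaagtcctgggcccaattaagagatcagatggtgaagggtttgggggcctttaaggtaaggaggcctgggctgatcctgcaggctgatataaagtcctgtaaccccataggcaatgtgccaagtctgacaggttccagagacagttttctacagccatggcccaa
Gnat2, chr3:108092816-108093115: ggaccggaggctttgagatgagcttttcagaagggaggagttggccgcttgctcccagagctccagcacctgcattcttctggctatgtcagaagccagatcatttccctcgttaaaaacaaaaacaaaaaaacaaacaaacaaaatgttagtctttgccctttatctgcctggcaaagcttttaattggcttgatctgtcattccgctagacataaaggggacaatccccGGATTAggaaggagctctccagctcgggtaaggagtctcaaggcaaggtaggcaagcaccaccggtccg
Of the 9 genes 6 had an entry, with 7 starts in all, and the core was found at 1 start, that of Gnat2, 19 bases before the start of transcription on the opposite strand. Over all 32851 promoters of this length 7.06% held the core. A match is a description of these letters only.

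The opsins divided the cones. Of the cones with at least 10 opsin UMIs, which were 72 Young, 91 Adult and 65 Old, the share led by M-opsin (at least 50% of opsin UMIs) was 47.2% (34 cones), 48.4% (44 cones) and 43.1% (28 cones). Cones with under 10% M-opsin, called S-opsin-led here, numbered 22, 28 and 19, and those between 10 and 50% numbered 16, 19 and 18. The counting intervals of the M-opsin-led shares, 35.3 to 59.3, 37.7 to 59.1 and 30.8 to 56.0%, overlap.

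Most cones led by M-opsin held no S-opsin at all. Their median was 0 Opn1sw UMIs in each library beside 50, 54.5 and 65.5 Opn1mw UMIs, and 26, 38 and 25 of them held M-opsin only. S-opsin-led cones had medians of 103, 100 and 129 Opn1sw UMIs and of 0.5, 0 and 2 Opn1mw UMIs. Both opsins were found in 35 Young, 38 Adult and 33 Old cones, mostly with more Opn1sw than Opn1mw. A further 31 cones (5, 16 and 10) had under 10 opsin UMIs, and those of the Adult and Old library were shallow, with medians of 2995 and 3386.5 UMIs, while the Young ones had a median of 9212.

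**Figure D2:**
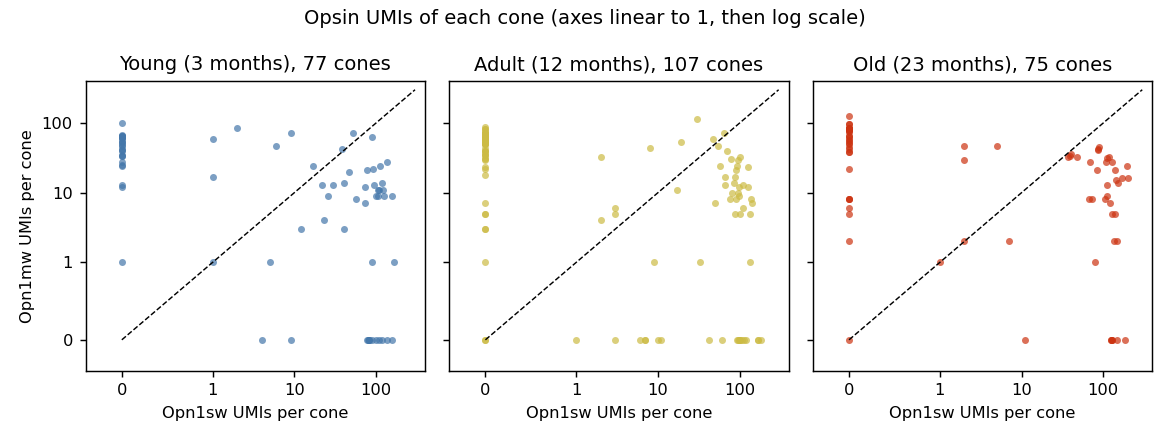
Opn1sw and Opn1mw UMIs of each cone in the 3 libraries (both axes linear to 1, then log scale); the dashed line marks equal counts. A column of cones at 0 Opn1sw stands apart from the cones at around 100 Opn1sw UMIs, which spread from 0 to 63 Opn1mw UMIs.

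Genes other than the opsins were then compared between cones led by M-opsin and cones led by S-opsin. UMIs were summed per library and kind of cone and tested with edgeR's quasi-likelihood test with the library as a block, adjusted by Benjamini-Hochberg, over 3 libraries that differ in age. Of 3384 genes tested, 30 (0.887%) were higher and 34 (1.00%) lower in M-opsin-led cones at an adjusted p under 0.05. The median log2 difference over all genes tested was -0.00. Leaving out the Adult library left 1 gene higher and 2 lower, namely Gm44532, Ccdc136 and Guca1a, and DESeq2 called 3 and 11. Without the cones that carry markers of another class 36 and 40 were called, including 62 of the 64 in the same direction.

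Ccdc136 (chromosome 6, 29396309 to 29426994, GRCm38) was lower in M-opsin-led cones, at 107 CPM in Young, 83.1 in Adult and 27.6 in Old, beside 1478, 1370 and 1306 in S-opsin-led cones. The groups were far apart in every library (log2 difference -4.22 ± 0.19 SE, edgeR adjusted p = 2.2e-24). Cones between the groups in opsin stood between them here as well, at 997, 975 and 835 CPM. All 69 S-opsin-led cones held a Ccdc136 UMI, with medians of 9, 9 and 8, as did 11 of 34, 9 of 44 and 3 of 28 of the M-opsin-led ones at similar depth. S-opsin-led cones without any Opn1mw UMI (pooled 1476 CPM) and those with some (1316 CPM) were close in level. In rods Ccdc136 was at 0, 1.05 and 3.78 CPM. Bipolar cells held it as well. Against them Ccdc136 was not called in cones, with a negative log2 difference. With 1000 to 6000 genes and 1 to 10% mitochondrial UMIs that difference was 1.26 (edgeR adjusted p = 0.0008).

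Ccdc136 is a neighbour of S-opsin. Its annotated gene starts 7841 bases from that of Opn1sw, on the opposite strand, in GENCODE M21, whose Opn1sw start lies upstream of the RefSeq one used for the promoter. Calu, a calcium-binding protein of the secretory pathway, lies on the other side of Opn1sw and overlaps it by 440 bases on the opposite strand. It was lower in M-opsin-led cones as well, at 28.5, 26.7 and 23.0 CPM beside 78.1, 127 and 83.0 (log2 difference -1.91 ± 0.37, edgeR adjusted p = 0.00065). Because the transcripts overlap and the counting by strand is not given in the sources used here, the Calu value is uncertain. Its call was also lost without the Adult library (edgeR adjusted p = 0.43) and with DESeq2 (adjusted p = 0.44). The other tested gene within 100 kb, the proton pump subunit Atp6v1f, had a log2 difference of -0.15 ± 0.21 (edgeR adjusted p = 0.91). The position of Ccdc136 and Calu was looked up after their values were seen.

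Gm44532, a long non-coding RNA gene on chromosome 7 (70420915 to 70453222), had the opposite pattern. It stood at 121, 154 and 156 CPM in M-opsin-led cones and at 0 UMIs in the S-opsin-led cones of all 3 libraries, at least 23.1-fold higher against a floor of 3 UMIs over that group (log2 difference 7.98 ± 0.80, edgeR adjusted p = 4.4e-10). It was found in 22 of 34, 31 of 44 and 19 of 28 M-opsin-led cones and in 2 of the 53 cones between 10 and 50%. The nearest protein-coding gene, 54180 bases away, is Nr2f2, a nuclear receptor. Nr2f2 itself was at 67.7, 35.6 and 41.4 CPM in M-opsin-led cones and at 0 in the others, S-opsin-led and intermediate. At 40 UMIs it fell under the expression filter, and without that filter it was higher in M-opsin-led cones (edgeR adjusted p = 1.5e-05). It was not tested without the 14 cones.

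Thrb, the thyroid hormone receptor needed for M-opsin, stood at 328, 397 and 423 CPM in M-opsin-led and at 221, 234 and 226 CPM in S-opsin-led cones, without overlap (log2 difference 0.72 ± 0.18, edgeR adjusted p = 0.014). This call was lost without the Adult library (adjusted p = 0.40), without the Old library and with DESeq2, and when all cones under 50% M-opsin were taken as the other group. Samd7, a photoreceptor repressor, was higher at 64.1, 101 and 87.3 CPM beside 13.0, 20.4 and 30.2 (log2 difference 1.99 ± 0.42, edgeR adjusted p = 0.0018), which did not hold without the Adult library or with DESeq2. Of the 12 tested genes in the list of photoreceptor transcription factors these 2 rose and 0 fell. Rxrg had -0.16 ± 0.32, Crx -0.14 ± 0.15 and Neurod1 0.13 ± 0.12, none past the threshold. Vax2, a ventral homeobox gene, rested on 14 UMIs in S-opsin-led and 2 in M-opsin-led cones and fell under the expression filter. Without that filter its log2 difference was -3.32 (edgeR adjusted p = 0.10).

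Of the cone cascade, Guca1a alone of 11 tested members passed. This activator of guanylate cyclase stood at 2960, 4052 and 4127 CPM in M-opsin-led and at 5991, 5717 and 7352 CPM in S-opsin-led cones (log2 difference -0.80 ± 0.12, edgeR adjusted p = 4.4e-06). Sag, the arrestin best known from rods, was also lower in M-opsin-led cones, at 2789, 3841 and 3387 beside 4864, 5906 and 5412 CPM (log2 difference -0.72 ± 0.11, edgeR adjusted p = 1.5e-05). The levels of both genes did not overlap between the groups. Without the Adult library the adjusted p was 0.034 for Guca1a and 0.076 for Sag. In the same cones Arr3, a gene of the rule and so a description only, stood at 3576, 3699 and 4283 CPM in M-opsin-led and at 2390, 2306 and 2506 in S-opsin-led cones. Gnat2, Pde6h, Pde6c and Cngb3 had pooled ratios of M-opsin-led to S-opsin-led of 0.985, 1.08, 1.05 and 1.01.

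Further genes lower in M-opsin-led cones were Cacna1h, a low-voltage calcium channel, Eya1, Syndig1l, A930009A15Rik, St3gal5, Trip4, Stk35 and Ralyl. Cacna1h rested on 3 UMIs in M-opsin-led and 45 in S-opsin-led cones, with 7.12, 0 and 4.60 beside 78.1, 86.5 and 121 CPM. Syndig1l stood at 7.12, 17.8 and 4.60 beside 104, 209 and 106 CPM. Higher were Smug1, a DNA repair glycosylase, Kpna2, Apela, Zfhx4, Cit, Stn1, Fzd10 and Susd4. These 8 lost their call with DESeq2 (adjusted p from 0.052 for Kpna2 to 1.00 for Susd4), as did St3gal5, Trip4, Stk35 and Ralyl of the lower ones. Without the Young library the edgeR call was lost for Cit (adjusted p = 0.18), Zfhx4 (0.13), Susd4 (0.60), Trip4 (0.32), Stk35 (0.061) and Ralyl (0.059). Smug1 rose to 214, 234 and 202 CPM from 0, 50.9 and 45.3. Among the other lists, Impg1 of the matrix around photoreceptors, and Ckmt1 and Ldhb of energy metabolism, were higher with log2 differences of 1.06 ± 0.22, 0.86 ± 0.18 and 1.04 ± 0.26 (edgeR adjusted p = 0.0014, 0.0014 and 0.012). All 3 lost their call without the Adult library (0.13, 0.26 and 0.44) and with DESeq2 (0.39, 0.39 and 1.00), Impg1 also without the Old (0.084) and Ldhb without the Young library (0.33). edgeR and DESeq2 called 0 of the 46 tested genes of the 7 other lists (16 synapse, 7 channel, 9 immediate early and heat shock, 7 clock, 3 retinoid, 2 stress and 2 antigen presentation genes), of which 5 had an unadjusted edgeR p under 0.05.

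**Figure D3:**
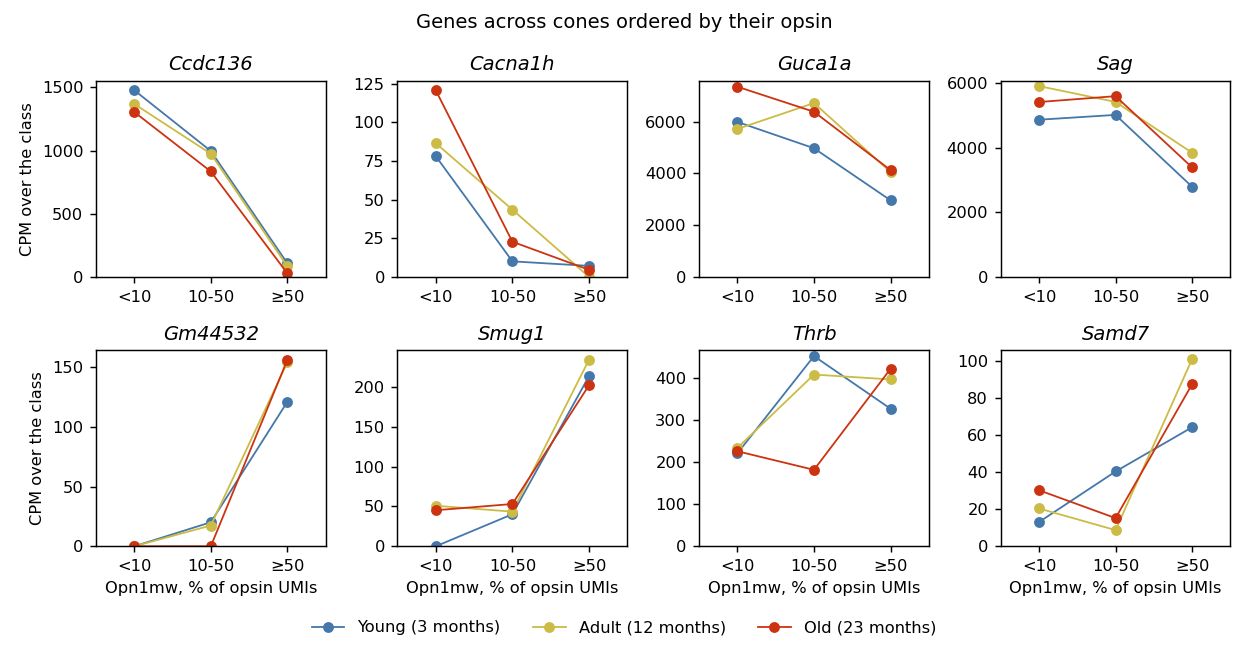
Levels (CPM, from 0) of 8 genes in cones with under 10%, 10 to 50% and at least 50% of their opsin UMIs from Opn1mw, 1 line per library. Ccdc136 and Cacna1h fall from left to right in each library, and Gm44532 is at 0 in the first class and at its highest in the last.

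Cones were next compared with rods of the same libraries (158 Young, 308 Adult and 221 Old) by the same edgeR test. Rod barcodes were shallower, with medians of 2252.5, 2433 and 2110 UMIs. Of 6514 genes tested, 1198 (18.4%) were higher and 1102 (16.9%) lower in cones, and the median log2 difference was 0.01. DESeq2 called 560 and 514. The genes of any class rule were left out of the test.

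The genes highest in cones against rods were Slc24a2, Pgc, Adrb1, Kcne2, Mogat1, Agr2, Mapk4, Lynx1, Scrn1 and Ackr1. Slc24a2, the sodium, calcium and potassium exchanger of cone outer segments, stood at 245, 205 and 226 CPM in cones and at 0 in all rods, at least 144-fold higher against 3 UMIs over the rods (log2 difference 10.03 ± 0.48, edgeR adjusted p = 1.3e-27). Adrb1, a beta-adrenergic receptor, stood at 479, 499 and 497 CPM on 908 UMIs, with 1 UMI in rods. Kcne2, a potassium channel subunit, stood at 431, 513 and 482 CPM on 882 UMIs, also with 1 UMI in rods. Pgc, a pepsinogen, stood at 192, 168 and 241 CPM, and Ackr1, a chemokine-binding receptor, at 75.3, 90.2 and 68.6, both with 0 UMIs in rods, at least 126-fold and 50.9-fold higher. The remaining 5 lay between 77.0 and 139 CPM in cones and at 0 in rods.

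In the cascade, 2 of 12 tested genes of the cone phototransduction list were higher in cones and 8 lower, with a median log2 difference of -0.99. The beta subunit Gnb3 was at 3014, 3184 and 3548 CPM in cones and at 113, 42.9 and 71.9 in rods (log2 difference 5.37 ± 0.18, edgeR adjusted p = 1.6e-17), and Slc24a2 is the other. Guca1a and Rgs9 were not called (log2 differences 0.18 ± 0.11 and -0.12 ± 0.11, edgeR adjusted p = 0.21 and 0.47). Of the lower genes, recoverin (Rcvrn) stood at 2451, 2854 and 3157 CPM in cones and at 4566, 5479 and 5203 in rods (log2 difference -1.01 ± 0.11, edgeR adjusted p = 1.0e-11). The kinase Grk1 had -1.04 ± 0.12 and the cyclase Gucy2e -0.96 ± 0.13. Phosducin (Pdc) had -1.91 ± 0.12, and Guca1b and the cyclase Gucy2f had -3.44 ± 0.13 and -3.96 ± 0.22. Rgs9bp and Gnb5, parts of the complex that turns transducin off, had -0.74 ± 0.12 and -1.06 ± 0.12.

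Rod subunits differed in how much remained in cones. Gnb1 in cones was 4.52, 11.4 and 5.11% of its rod level, and Cngb1 5.56, 11.7 and 7.66%. Sag was 48.4, 68.3 and 55.7%, Pde6g 30.8, 37.4 and 35.9%, and Gngt1 27.0, 31.8 and 29.8%. All 5 were lower in cones than in rods (edgeR adjusted p from 0.0019 for Gnb1 to 3.1e-30 for Cngb1). There were 12.4, 5.88 and 13.1 Sag UMIs per Gnb1 UMI in Young, Adult and Old cones and 1.16, 0.981 and 1.20 in rods, with Gnb1 taken as the reference after its values were seen. The ratio of Sag in cones exceeded that in rods in all 3 libraries (10.6 to 14.6 against 1.10 to 1.22 in Young), which restates the percentages above. Cngb1 UMIs per Gnb1 UMI were 0.222, 0.179 and 0.282 in cones and 0.180, 0.175 and 0.189 in rods. The part of carried-over RNA in these values was not tested.

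Of 16 tested transcription factors 8 were higher and 6 lower in cones. Rxrg and Sall3, a retinoid receptor and a zinc-finger factor of cones, were at 51.3, 70.8 and 81.6 and at 66.7, 81.9 and 72.3 CPM and at 0 in all rods, at least 43.5-fold and 47.7-fold higher. Thrb was at 294, 323 and 295 CPM in cones and at 85.6, 78.5 and 49.2 in rods (log2 difference 1.94 ± 0.15, edgeR adjusted p = 2.2e-17). Neurod1, Rora, Mef2d, Prdm1 and Nr2f2 were higher too, the first at 1250, 1398 and 1451 CPM beside 795, 716 and 811. The call for Nr2f2 was lost without the Young library (edgeR adjusted p = 0.23) and with DESeq2 (adjusted p = 0.13), and without the 14 cones with other markers the gene fell under the expression filter and was not tested. Esrrb, an orphan receptor of rods, was lower at 17.1, 16.7 and 16.7 CPM beside 169, 161 and 142 (log2 difference -3.38 ± 0.23). Samd11, Mef2c, Samd7, Rorb and Casz1 were lower with log2 differences from -3.25 to -0.53, and Casz1 lost its call with DESeq2 (adjusted p = 0.087). Crx, the factor common to photoreceptors, had a log2 difference of -0.20 ± 0.12 (edgeR adjusted p = 0.20). Of the genes listed for the opsin choice, Tafa3 was also higher at 274, 320 and 185 beside 2.25, 4.19 and 1.89 CPM, and Vax2 lower on 30 UMIs in cones and 105 in rods.

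Outer segment genes were mostly lower in cones, 9 of 14, with 3 higher and a median log2 difference of -0.90. The rim proteins Prph2 and Rom1 stood at 1237, 1858 and 1490 and at 1320, 1865 and 1570 CPM in cones against 6963, 6751 and 6242 and 7218, 7888 and 7057 in rods. Rp1, Fscn2, Impg1, Prom1, Rp1l1 and Tulp1 were lower as well. Pcdh15, a cadherin, was higher at 600, 662 and 589 beside 126, 90.0 and 129 CPM (log2 difference 2.31 ± 0.14, edgeR adjusted p = 1.8e-23), as were Rpgrip1 and Rpgr. Without the Adult library 1 gene was higher, Pcdh15, and 9 were lower. Rpgrip1 and Rpgr then had an edgeR adjusted p of 0.29 and 0.61, and Rpgr 0.055 without the Young library. The call for Tulp1 was lost without any 1 of the libraries (0.13 to 0.14) and without the 14 cones (0.13). With DESeq2 1 gene was higher and 7 lower, and Rpgrip1, Rpgr, Rp1l1 and Tulp1 were not called (adjusted p = 0.17, 0.52, 0.10 and 0.27).

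At the synapse 5 of 17 genes were higher and 7 lower. Cplx3, a complexin, was at 472, 585 and 665 CPM in cones and at 11.3, 9.42 and 5.67 in rods (log2 difference 5.84 ± 0.21, edgeR adjusted p = 6.7e-35), while its relative Cplx4 was at 611, 726 and 714 in cones and at 1253, 1370 and 1366 in rods (-1.12 ± 0.11, edgeR adjusted p = 3.4e-13). Syt1, Snap25, Pclo and the ribbon component Ctbp2 were higher by log2 differences from 0.39 to 1.09. The other lower genes were small changes, from -0.79 for Cacna2d4 to -0.28 for the glutamate transporter Slc17a7 (edgeR adjusted p = 0.045). Slc17a7 lost its call without the Young library (edgeR adjusted p = 0.23), without the Old library (0.16) and with DESeq2 (0.34). Without the 14 cones with other markers 4 genes of the list were lower, and without the Young, Adult or Old library 3, 4 and 4. Cabp4 lost its call without any 1 library (edgeR adjusted p 0.077 to 0.11) and without the 14 cones (0.10), Elfn1 without the Adult (0.11) or Young library (0.054), Ctbp2 without the Adult (0.12) and Snap25 without the Old library (0.25). With DESeq2 3 were higher and 3 lower, and Snap25, Ctbp2, Cabp4 and Elfn1 were not called (adjusted p = 0.18, 0.23, 0.35 and 0.37).

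Of 22 tested genes of glycolysis and phosphocreatine, 6 were higher and 12 lower in cones. Brain creatine kinase Ckb stood at 3402, 3671 and 4590 CPM in cones beside 964, 923 and 1040 in rods (log2 difference 1.83 ± 0.11, edgeR adjusted p = 6.0e-22), with its mitochondrial partner Ckmt1 at 342, 322 and 348 beside 115, 114 and 161. Eno2 was higher at 207, 225 and 247 beside 74.4, 58.6 and 75.7, while Eno1 was lower at 970, 863 and 712 beside 1147, 1334 and 1216. Pfkm was higher, on 58 UMIs in cones and 7 in rods, while Pfkl and Pfkp were lower (log2 differences -0.90 ± 0.14 and -1.11 ± 0.15). Hk2 and Tpi1 were the other higher genes, and Gapdh, Pkm, Aldoa, Pgam1, Gpi1, Ldha, Hk1, Slc16a1 and Slc16a3 the other lower ones. Hk2 lost its call without the Young (edgeR adjusted p = 0.16) or Old library (0.47) and with DESeq2 (0.32), Gpi1 without the Young (0.081) or Old library (0.10), and Tpi1 and Slc16a3 without the Old library (0.22 and 0.074). With DESeq2 Gpi1, Tpi1, Slc16a3 and Ldha were not called either (adjusted p = 0.33, 0.14, 0.18 and 0.071).

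Of 8 tested channels and pumps, the chloride extruder Slc12a5 and the sodium pump subunit Atp1b2 were higher besides Slc24a2, and 4 were lower, among them Kcnv2. Retinoid handling genes were lower in 4 of 5 (Abca4, Rdh12, Dhrs3 and Rbp3, from -2.48 to -0.48). Clock genes were higher in cones in 6 of 10, with Dbp at 95.8, 98.5 and 120 CPM beside 24.8, 16.8 and 24.6 and Per3 at 121, 104 and 111 beside 42.8, 27.2 and 26.5. Nr1d1, Tef, Cry2 and Clock were the others, and Bhlhe41 was lower. Clock lost its call without the Adult (edgeR adjusted p = 0.26) or Old library (0.48) and with DESeq2 (0.50), Cry2 without the Adult (0.062) and Bhlhe41 without the Young library (0.058). Cry2 and Bhlhe41 also lost theirs with DESeq2 (adjusted p = 0.10 and 0.20). Each library came from mice at an hour that is not given in the sources used here. Immediate early genes Fos, Fosb, Jun, Jund and Egr1 and the chaperone Hspa8 were higher, and Hspa1a, Hspa1b and Hsp90aa1 lower, of 14 tested. Without the 14 cones 6 were higher and 5 lower, and the log2 difference of Jun went from 1.09 to 0.43 (edgeR adjusted p = 0.0499). Of the stress list Socs3, Stat3 and Sqstm1 were higher and Mt1 lower of 6, and Sqstm1 lost its call without the Young (edgeR adjusted p = 0.062) or Old library (0.30) and without the 14 cones (0.23), and Mt1 without the Adult library (0.18). DESeq2 called 1 of these 4, Socs3, with an adjusted p of 0.053 for Stat3, 0.30 for Sqstm1 and 0.29 for Mt1. H2-K1 was the 1 gene higher of 4 in antigen presentation (edgeR adjusted p = 0.026), and its call was lost without the Young library (adjusted p = 0.57), without the 14 cones with other markers (0.38) and with DESeq2 (0.32). It has near-identical relatives and is uncertain. The 6 endothelial markers summed to 481, 27.7 and 245 CPM in Young, Adult and Old cones.

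The genes lowest in cones were Pak7, Sh2d1a, St8sia1, Gm11342, Polg2, 3010001F23Rik, Gnb1, Gucy2f, Nt5e and Pdia5. Their log2 differences ran from -4.39 ± 0.32 for Pak7 to -3.83 ± 0.31 for Pdia5. Nt5e, the surface enzyme CD73, stood at 8.55, 22.2 and 3.71 CPM in cones and at 185, 158 and 142 in rods. St8sia1, a ganglioside synthase, stood at 6.84, 9.71 and 5.56 beside 137, 143 and 110. In cones these 10 genes were at 0 to 14.0% of the rod level.

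**Figure D4:**
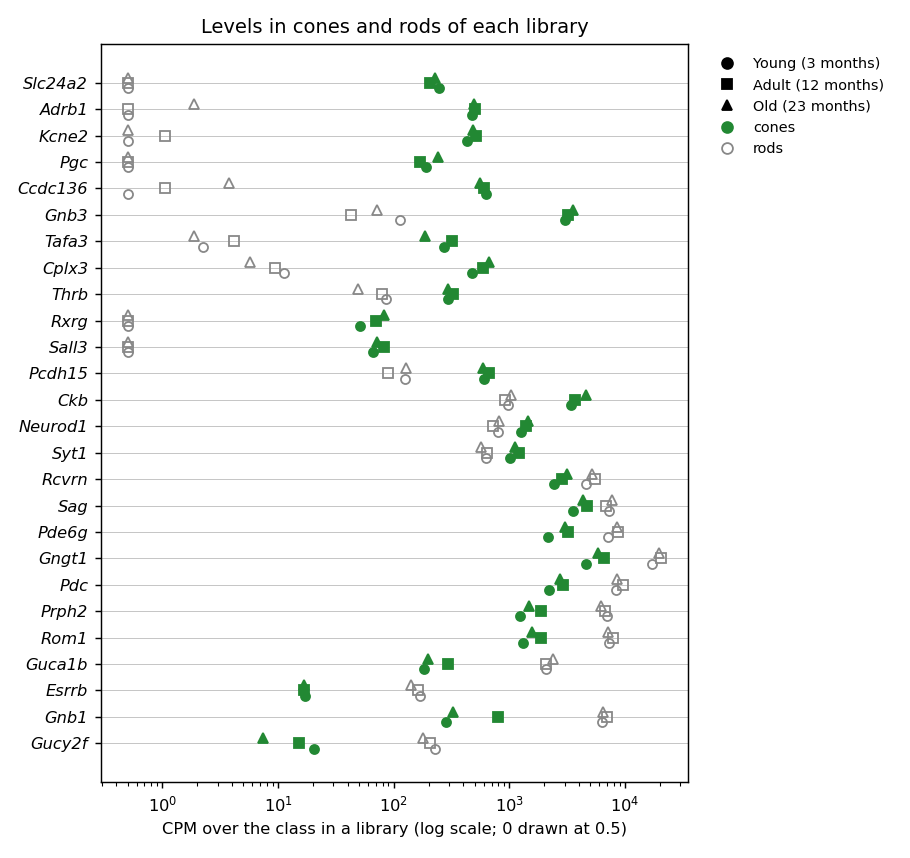
Levels (CPM on a log scale, 0 drawn at 0.5) of 26 genes in cones (filled) and rods (open) of each library. Genes from Slc24a2 to Syt1 lie higher in cones and those from Rcvrn down lie higher in rods in all 3 libraries.

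Against bipolar cells (168, 178 and 137 barcodes with medians of 6329, 7105 and 6610 UMIs, near the depth of cones), 1824 of 8419 genes (21.7%) were higher and 1949 (23.2%) lower in cones, with a median log2 difference of -0.02. DESeq2 called 1007 and 1154. Of the outer segment genes 13 of 14 were higher and 0 lower (median log2 difference 5.38), and of the cone phototransduction genes 10 of 11 were higher and 0 lower (4.67). Guca1a stood at 3891, 4687 and 5142 CPM in cones and at 10.7, 11.9 and 18.2 in bipolar cells (log2 difference 8.45 ± 0.12, edgeR adjusted p = 2.5e-28), and Rgs9 at 501, 626 and 564 beside 2.68, 1.58 and 1.07. Gnb3, also used by ON bipolar cells, differed less, at 3014, 3184 and 3548 beside 1163, 1147 and 1325 CPM.

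Of 18 transcription factors 14 were higher and 4 lower, and with DESeq2 Rora was not called (adjusted p = 0.11). Crx was higher at 486, 506 and 413 beside 170, 146 and 165 CPM (log2 difference 1.59 ± 0.11, edgeR adjusted p = 5.2e-13) and Prdm1 at 39.3, 30.5 and 46.3 beside 0, at least 42.0-fold. Otx2, Rorb, Nr2f1 and Tbx2 were lower, Otx2 at 130, 166 and 122 beside 340, 412 and 408. Synapse genes ran both ways, 6 of 19 higher (Cabp4, Cplx4, Elfn1, Lrit1, Slc17a7 and Stx3) and 10 lower. The call for Lrit1 was lost without the Adult library (edgeR adjusted p = 0.11), and that for Syt1, 1 of the lower genes, without the Young (0.061) or Adult library (0.12) and without the 14 cones (0.078). With DESeq2 4 were higher and 5 lower, and the calls lost were those of Lrit1 (adjusted p = 0.35) and Stx3 (0.12) among the higher and of Ctbp2 (0.34), Pclo (0.063), Syt1 (0.59), Unc13b (0.17) and Vamp2 (0.25) among the lower genes. Ctbp2 was also lost without the Old library (edgeR adjusted p = 0.064). Cplx3, far above its rod level in cones, was lower there than in bipolar cells at 1090, 1315 and 1561 CPM (log2 difference -1.16 ± 0.08, edgeR adjusted p = 9.7e-13). Of 11 clock genes 7 were lower in cones than in bipolar cells (Bhlhe41, Cry2, Dbp, Nr1d1, Nr1d2, Per3 and Tef), of which Cry2, Dbp, Nr1d1, Per3 and Tef were higher in cones than in rods. Nr1d2 and Tef lost the call against bipolar cells with DESeq2 (adjusted p = 0.077 and 0.22), and Cry2 that against rods (0.10). Dbp was at 384, 401 and 535 CPM in bipolar cells. Glycolysis and phosphocreatine genes were higher in 12 of 22 and lower in 4, led by Hk2 at 901, 931 and 1006 beside 8.03, 19.8 and 11.7 CPM and Slc16a1 at 142, 151 and 189 beside 2.68, 7.12 and 8.54. With DESeq2 10 were higher, without Eno2 (adjusted p = 0.21) and Gapdh (0.27).

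The genes highest against bipolar cells were Gm42697, Fzd10, Agr2, Gulo, Gm44532, Cckbr, Elovl7, Doc2b, Ccl9 and Ppm1n. The first 9 had 0 UMIs in all bipolar cells and lay at least 58.8-fold higher in cones. Fzd10, a Wnt receptor, stood at 123, 104 and 119 CPM, Gulo, the last enzyme of vitamin C synthesis, at 103, 112 and 119, and Cckbr, a cholecystokinin receptor, at 61.6, 66.6 and 66.7. The lowest were Ntng1, Bhlhe23, Qpct, Slco5a1, Ano3, Cdh8, Gm20754, Tmem196, Cnmd and Vstm2b. Among the smaller lists, 6 of 9 tested channels and pumps were higher than in bipolar cells, among them Ano2, Atp1b2, Kcnv2 and Slc24a2, and Atp2b2 and Slc12a5 were lower. Abca4, Rbp3 and Rdh12 were higher of 6 retinoid genes. Fos, Fosb, Jund, Hsp90aa1, Hspa1a and Hspa1b were higher and Hspe1 lower of 15, where Jund lost its call without the Young (edgeR adjusted p = 0.25) or Old library (0.11) and without the 14 cones (0.099) and Hspe1 was 1 of 3 lower genes without the 14 cones (DESeq2 adjusted p = 0.30 for Jund and 0.25 for Hspe1), and Socs3 and Atf4 were higher and Mt1, Mt2 and Sqstm1 lower of 7 stress genes. The 4 tested antigen presentation genes (B2m, H2-D1, H2-K1 and Tapbp) were higher. B2m fell under the expression filter without the 14 cones and without the Old library and was not tested there, and against rods its log2 difference turned from 0.59 to -1.55 without the 14 cones. Tapbp lost its call without the Adult (edgeR adjusted p = 0.13) or Old library (0.058) and with DESeq2 (0.19). H2-K1 lost its call without the Young library (edgeR adjusted p = 0.060) and with DESeq2 (adjusted p = 0.058). Ntng1 was at 931, 988 and 984 CPM in bipolar cells on 3213 UMIs, with 1 UMI in all cones.

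Between ages, cones were compared by UMI sums. No test is possible with 1 library per age, so ratios carry exact intervals and a gene is counted when past a fold of 1.5. Of 3543 genes with at least 50 UMIs over Young and Old cones, 194 (5.48%) were past that fold upward and 176 (4.97%) downward in Old, with a median log2 ratio of 0.06. Between Young and Adult, 246 of 4039 (6.09%) were past it upward and 143 (3.54%) downward. At 2-fold the Old counts were 18 and 50.

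The 20 members of the cone phototransduction list with enough UMIs had 0 past 1.5-fold in either direction from Young to Old, with ratios from 0.835 to 1.41, 15 of them above 1 and a median log2 ratio of 0.24. Summed, the list stood at 47261 CPM in Young, 52327 in Adult and 58920 in Old cones. The list holds the 9 genes by which the cones were chosen, with 19741 of its 27632 Young UMIs, so these values are a description. Without the 14 cones with other markers the ratios of Old to Young were 1.16 for Opn1sw, 1.25 for Opn1mw, 1.21 for Pde6h and 1.10 for Gnat2, and 0.911 for Pde6c. With 1000 to 6000 genes and 1 to 10% mitochondrial UMIs, which left 20 Young cones, 9 of 19 members were past the fold upward, beside 26.4% of all genes under the same limits, with ratios up to 2.03 (Opn1mw).

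From Young to Old, 0 of 17 synapse, 0 of 8 clock and 0 of 8 channel genes were past the fold, 1 of 14 outer segment genes was past it upward, and 1 of 15 transcription factors was past it in each direction, as were 1 of 20 energy genes and 1 of 7 genes of the opsin choice. Of 4 stress and 3 antigen presentation genes 1 each was past it upward, and of 4 retinoid and 13 mitochondrially encoded genes 1 each downward. The energy list summed to 15156, 16809 and 17943 CPM. The mitochondrially encoded genes summed to 115559, 112570 and 110596 CPM. The immediate early and heat shock list had 0 of 12 upward and 4 downward, beside 4.97% downward over all genes, but without the 14 cones it had 1 of 9 upward and 0 downward. From Young to Adult, 8 of 11 rod phototransduction genes were past the fold upward, beside 6.09% of all genes, and 8 of 11 were without the 14 cones as well. From Young to Old 1 of 11 was past it upward, and without the 14 cones 0 upward and 1 downward. The 14 cones were not chosen by rod markers, so leaving them out is no check on rod RNA. The part of RNA carried over from rods was not tested.

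The genes with the lowest ratios of Old to Young were concentrated in single barcodes. They were Hbb-bt, Hbb-bs, Hba-a2, Hba-a1, Slco1a4, Dkk3, Lcn2, Vim, Apoe and Ptprb, among them haemoglobin genes. Of the 4160 Hbb-bs UMIs in Young cones, 4155 lay in a single barcode, and of 588 Apoe UMIs 306 lay in 1. Without the 14 cones Apoe had 23 Young and 30 Old UMIs and its ratio went from 0.122 to 1.26, while 1 Young and 2 Old UMIs were left of Vim and of Dkk3, too few to read a change from their ratio. In the other direction Rgs5, a pericyte gene, had 192 of its 201 Old UMIs in 1 barcode and went from 3.20 to 0.792, and Neurod4, with 38 of its 39 Old UMIs in 1 barcode, from 3.52 on 12 Young UMIs to 1 Old beside 9 Young UMIs. Rgs5, Dkk3 and the haemoglobin genes are among the markers by which the 14 cones were chosen. Their change without the 14 cones follows in part from that choice.

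The other genes with the highest ratios were spread over cones. They were Prpf19, Apela, Praf2, Immp1l, Wdr27, Ccdc85a, Med22 and Creb3. Apela, a peptide ligand of the apelin receptor, had 23 UMIs in Young (39.3 CPM), 46 in Adult (63.8) and 60 in Old cones (111), so that Old exceeded Young 2.83 times (1.72 to 4.79), with at most 6 UMIs in 1 Old cone, and 2.40 without the 14 cones. Immp1l, a mitochondrial peptidase subunit, had 24, 54 and 57 UMIs and a ratio of 2.57 (1.57 to 4.34). Praf2, Prpf19, Wdr27, Ccdc85a, Med22 and Creb3 rested on 15 to 18 Young and 35 to 42 Old UMIs, with ratios from 2.23 to 2.89. With each cone thinned to 2000 UMIs the ratio of Immp1l was 1.37, that of Creb3 1.06 and that of Prpf19 0.704. In cones led by M-opsin Apela stood at 49.9, 97.9 and 216 CPM.

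Applied without the 14 cones, the same choice gave Immp1l, Prpf19, Ccdc85a, Praf2, C1qbp, Apela, Snrpa, Wdr27, Clu and Tspan13 as highest and Gng13, Brwd1, Zc3h6, Mau2, Dleu2, Rbmx, Dmtf1, Vapb, 6530402F18Rik and Kcnma1 as lowest. Clu, clusterin, had 65, 144 and 150 UMIs (133, 212 and 297 CPM) and a ratio of 2.23 (1.66 to 3.04). In endothelial cells Clu was at 40.7 CPM in Young and 89.7 in Old, and in rods at 42.8 and 60.5. Over all cones its counts were 209, 203 and 160, of which 75 Young and 52 Adult UMIs lay in 1 barcode each. Gng13, a G protein gamma subunit of ON bipolar cells, had 59, 50 and 20 UMIs and a ratio of 0.328 (0.187 to 0.553). It is among the bipolar markers by which the 14 cones were chosen. Over all cones, 24 of its 84 Young and 28 of its 48 Old UMIs lay in 1 barcode each. In endothelial cells Gng13 was at 26.6 CPM in Young and 6.54 in Old. The part of carried-over RNA in it was not tested. Rbmx, an RNA-binding protein, had 68, 60 and 32 UMIs and a ratio of 0.455 (0.289 to 0.703).

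**Figure D5:**
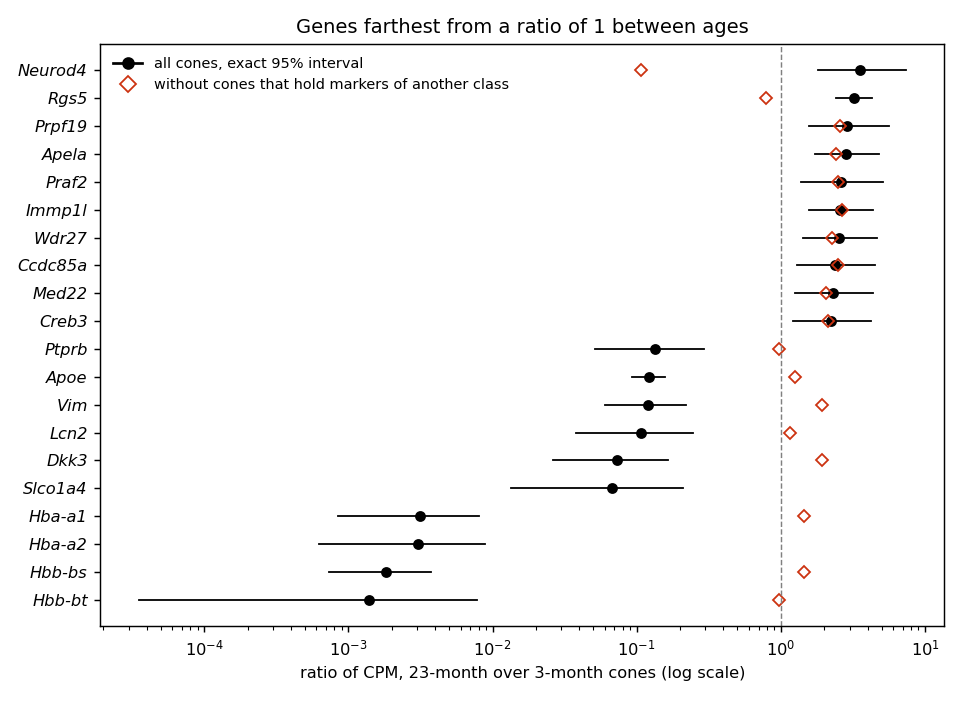
Ratio of CPM in 23-month to 3-month cones (log scale) of the 10 highest and 10 lowest genes, with all cones (points, exact 95% interval) and without the 14 cones that hold markers of another class (diamonds). Without the 14 cones 8 of the 10 lowest genes move to higher ratios, most of them on few UMIs, while Hba-a2 had no Young count and Slco1a4 no Old count and so have no diamond, while 8 of the 10 highest stay above 2. Rgs5, Dkk3 and the haemoglobin genes are among the markers by which the 14 cones were chosen.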

How the data were processed

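The deposited matrices held untransformed UMI counts of 32285 genes in each barcode, which the authors made with Cell Ranger 6.1.2 and mm10 per the submitters' processing notes. Barcodes outside the limits on genes and mitochondrial UMIs were still present. Cone members, gene lists and comparisons were chosen with earlier results of these data known. Rods, bipolar and endothelial cells had under 3 of the 9 cone genes with a UMI and at least 5 of 9 rod, 4 of 11 bipolar or 4 of 8 endothelial genes, and fewer than 4 of 6 markers of any other class.

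Sums of UMIs over the cells of a class in a library were tested with edgeR 4.0.16 in R 4.3.3 (TMM, filterByExpr, robust quasi-likelihood fit, library as a block, Benjamini-Hochberg). The block pairs classes drawn from the same suspension. Here 86 genes used by a class rule or marker list, and mitochondrial genes, were left out of the tests. SE is the log2 difference over the root of F. DESeq2 1.42.0 was an alternative. The scripts were tested on simulated data. The 3 libraries differ in age. The block takes up differences in level between them, so p-values weigh a class difference against its variation from library to library. Ratios between ages have exact conditional 95% intervals, shares Clopper-Pearson intervals (scipy 1.17.1).

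Named genes were the 10 with the largest difference in each direction (called, in the same direction in all 3 libraries and at 50 CPM or more, or, between opsin groups, called; between ages, at least 50 UMIs and an interval that leaves out 1), with called list members. Positions are from GENCODE M21 on GRCm38, in which 32158 gene identifiers were found. Alternatives changed the cone rule, the limits, the filter, the normalisation and the libraries. Some genes are not reported here.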

Additional observations from a re-analysis of the deposited data

Results flagged for a closer look

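Barcodes outside the limits on genes and mitochondrial UMIs held cone genes as well. At least 5 of the 9 cone genes had a UMI in 69 such Young, 94 Adult and 88 Old barcodes, against 77, 107 and 75 cones inside the limits. They drew attention as a signal in barcodes that no comparison used. Nearly all were over 20% mitochondrial UMIs (69, 93 and 86), with medians of 41.7, 43.0 and 45.2%, and they were shallow, with medians of 1802, 1790.5 and 2015.5 UMIs. Of the 8, 14 and 15 with at least 10 opsin UMIs, 2, 5 and 2 were led by M-opsin. Over all 69, 94 and 88, however, Opn1mw made up 53.6, 51.4 and 40.3% of the opsin UMIs. Inside the limits S-opsin-led cones had medians of 109, 105 and 134 opsin UMIs, and M-opsin-led cones 52.5, 56.5 and 65.5. A cut on opsin UMIs need not keep both kinds alike in shallow barcodes.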

How the results depend on the processing

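No paired analysis was possible between ages because each age has 1 library. Between classes the library is a block. Without the block 1191 genes were higher and 1090 lower against rods, 1845 and 1951 against bipolar cells, and 30 and 35 between opsin groups.

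DESeq2 lowered the calls to 560 higher and 514 lower against rods, 1007 and 1154 against bipolar cells and 3 and 11 between opsin groups. Limits of 1000 to 6000 genes and 1 to 10% mitochondrial UMIs gave 501 and 450 against rods and 768 and 761 against bipolar cells, on fewer cells: cones were then 1.60% of Young, 2.99% of Adult and 2.23% of Old barcodes, and 33.3% of Young cones were led by M-opsin. With no filter on low counts 48 genes were higher between opsin groups. Leaving out 1 library gave 1 to 29 higher and 2 to 32 lower there, the lowest without the Adult library, 960 to 1025 and 901 to 954 against rods, and 1564 to 1685 and 1690 to 1858 against bipolar cells.

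Of genes in Old against Young cones, 2.93% were past the fold upward and 2.22% downward with at least 100 UMIs, 0.508% and 1.41% at 2-fold, and 26.4% and 8.08% under the stricter limits. For Adult against Young the values were 3.44% and 1.83%, 0.817% and 1.24%, and 20.8% upward under the stricter limits.

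Against rods the log2 difference of Mt1 became 0.068 under the stricter limits, and without the 14 cones with other markers Junb became -1.12 and B2m -1.55. Against bipolar cells Ccdc136 became 1.26 under the stricter limits, Dusp1 -1.37 without the 14 cones (and from -1.03 to 0.57 with 1 library left out, the lowest without Young), and Ier2 -1.33 without them. The ratios of Old to Young became, without the 14 cones, 0.108 for Neurod4, 0.792 for Rgs5, 1.45 for Hbb-bs and Hba-a1, 1.94 for Dkk3 and Vim, 1.16 for Lcn2 and 1.26 for Apoe. Rgs5 became 0.150 with at least 6 cone genes, Prpf19 0.704 with each cone thinned to 2000 UMIs and Lcn2 1.04 without the Scrublet doublet. Of these ratios without the 14 cones, those of Neurod4 (9 Young and 1 Old UMIs), Dkk3 and Vim (1 and 2 each), Hbb-bs (4 and 6), Hba-a1 (2 and 3) and Lcn2 (5 and 6) rest on very few UMIs. Rgs5, Dkk3, Hbb-bs and Hba-a1 are also among the markers by which the 14 cones were chosen. The cause was not tested for any of these. The restriction to cones with at least 3000 UMIs and the opsin test without the 14 cones were chosen after seeing the data.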
